A study of Mus musculus with 12 samples.

Results

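Genes of fatty acid binding and lipid uptake were followed here: Fabp3, Fabp4, Fabp5, Fabp7, Cd36, Lpl, Plin2 and Angptl4, which are 8 of the 18609 genes listed in each library. The 8 were named by symbol, and the set was chosen by a result of these same libraries, the host-dependent response of Fabp7. Fabp7 is therefore described by its values and carries no p-value, and for the set as a whole no difference between the hosts' responses is tested. RNA was sequenced from tumours of the mouse colon cancer line MC38 in 4 groups of 3 libraries. The hosts were WT C57BL/6 mice or TLR4 knockout C57BL/6 mice, called wild-type and knockout hosts below, and each kind of host received either PBS (phosphate-buffered saline) or Salmonella by intravenous injection. Tumours were sampled 1 day later. TLR4 is the receptor for bacterial lipopolysaccharide. The knockout describes the host, while the MC38 cells are not stated to differ between groups. Neither the hosts' age, nor the Salmonella strain and dose, nor the deleted part of Tlr4 is given in the labels, and PBS is the control in both hosts.

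Fatty acid binding proteins are small proteins of the cytosol that carry long-chain fatty acids and related lipids between membranes, droplets and the nucleus. Fatty acids reach a tissue largely from blood lipoproteins: lipoprotein lipase (Lpl) cuts them from triglycerides at the capillary wall, the angiopoietin-like protein Angptl4 inhibits that enzyme, the membrane receptor Cd36 promotes uptake, and perilipin 2 (Plin2) coats the droplets in which surplus lipid is stored. Members of the binding protein family are used in different tissues. Fabp3 is the form of heart and skeletal muscle, Fabp4 that of adipocytes, macrophages and capillary endothelium, Fabp5 that of epidermis and many other cells, and Fabp7 that of radial glia and other glial cells.

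Each library held 30512178 to 38764537 fragments on listed genes, and levels are in FPKM, fragments scaled to a gene's length in kilobases and to the library's total. The libraries of a group are titled F-1, M-1 or M-2, with Y-linked genes at 0 to 1 fragments in F and 266 to 1247 in M libraries. Whether M-1 and M-2 are 2 animals is not labelled, and the p-values reflect only how far these libraries spread, part of which may be technical. Tlr4 RNA lay at 1.59 to 3.15 FPKM in the knockout libraries and at 2.48 to 3.78 in the wild-type libraries. Its total level does not check the host labels, since the tumour cells carry a Tlr4 gene of their own and the deleted part is not given. The source of this RNA was not tested. The labelled cell type is colon cancer cells, yet 7 epithelial markers summed to at most 2.53 FPKM in any library, and Epcam did not pass 0.42 FPKM.

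The promoters of 4 of the 8 genes (Fabp3, Fabp7, Cd36 and Plin2) were found in the RefSeq promoter table for GRCm38.p6, which spans 250 bases before to 50 after a gene's start. The windows of Fabp7, Cd36 and Plin2 are shown because each holds the nuclear receptor motif AGGTCA, the letters that PPAR receptors, regulators of many lipid genes, recognise in pairs. Bases that touch an annotated exon are left off. Each is printed 5′ to 3′ on the gene's strand, and the capitals mark TGACCT, which is AGGTCA on the other strand.

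Fabp7, chr10:57784673-57784880, plus strand: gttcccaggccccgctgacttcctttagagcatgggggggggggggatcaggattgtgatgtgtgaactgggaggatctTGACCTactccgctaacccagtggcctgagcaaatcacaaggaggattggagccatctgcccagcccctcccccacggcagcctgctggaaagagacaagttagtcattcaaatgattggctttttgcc

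Cd36, chr5:17835897-17836146, minus strand: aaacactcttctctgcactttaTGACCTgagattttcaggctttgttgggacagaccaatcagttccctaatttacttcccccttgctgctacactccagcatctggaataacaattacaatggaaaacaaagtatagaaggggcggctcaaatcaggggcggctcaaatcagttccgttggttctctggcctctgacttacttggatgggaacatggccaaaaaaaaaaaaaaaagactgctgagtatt

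Plin2, chr4:86670061-86670309, minus strand: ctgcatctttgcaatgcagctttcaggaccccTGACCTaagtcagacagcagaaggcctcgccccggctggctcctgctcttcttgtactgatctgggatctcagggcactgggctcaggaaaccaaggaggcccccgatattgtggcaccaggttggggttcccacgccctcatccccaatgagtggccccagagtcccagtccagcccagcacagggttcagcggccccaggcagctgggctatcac

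Searched on both strands over the full 300-base windows, AGGTCA occurred once in each of Fabp7, Cd36 and Plin2 and not in Fabp3, and it occurred in 16.3% of 32851 promoters of that length. The core of the hypoxia response element, ACGTG, occurred in Plin2, where its 2 matches are the same letters read on both strands, begin in the last printed bases and end beyond them, and in 19.6% of all promoters. The AP-1 site TGANTCA, found in 7.81% of promoters, and an NF-kB-like site, found in 1.63%, occurred in none of the 4 windows. The Cd36 window is that of 1 RefSeq start inside the annotated gene, and other starts of the gene were not searched. These matches describe letters and say nothing about binding in these tumours.

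Fabp7, whose gene lies on chromosome 10 from 57784881 to 57788450 on the plus strand (GENCODE M21, GRCm38; the authors' build is not given in the sources used here), was near the detection limit in 3 of the 4 groups. In wild-type hosts under PBS it was at 0.14 FPKM in F-1, 0 in M-1 and 0.177 in M-2. In wild-type hosts under Salmonella it was at 5.72, 3.7 and 3.12 FPKM in the same order. Knockout hosts gave 0.238, 0.205 and 0 FPKM under PBS and 0.316, 0.102 and 0.355 under Salmonella. All 3 wild-type Salmonella libraries thus lay above the other 9, and the knockout groups overlapped. Because it reached 0.5 FPKM in those 3 libraries only, it passed the filter on low values through the group in which it was high, and the gene fails that filter when any of the 3 is left out.

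In fragments, Fabp7 held 9 in the wild-type PBS group and 322 in the wild-type Salmonella group, a depth-adjusted ratio of 39.5. In knockout hosts it held 12 and 22 fragments, a ratio of 1.75. These ratios describe the values by which the gene was chosen. On the log2(FPKM + 0.5) scale used throughout for differences, which understates the change of low genes, the Salmonella effect was 3.06, SE 0.26, in wild-type hosts and 0.23, SE 0.26, in knockout hosts, and knockout hosts lay below wild-type hosts under Salmonella (difference -2.74, SE 0.26). The size depended on the setting. In wild-type hosts it was 4.62 with a pseudocount of 0.1, 2.32 with a pseudocount of 1 and 5.80 with voom on fragments, and in knockout hosts it was 0.64 with a pseudocount of 0.1 and 1.30 with voom. By title letter, the difference in wild-type hosts was 3.50 for F (1 library per group) and 2.83 for M (2 per group). In knockout hosts it was 0.17 for F and 0.27 for M.

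Because Fabp7 is known for glial cells, 11 Schwann and glial markers were read beside it. They summed to 1.52 to 2.73 FPKM in wild-type PBS, 2.42 to 6.87 in wild-type Salmonella, 1.75 to 2.12 in knockout PBS and 1.76 to 2.11 in knockout Salmonella libraries, and Foxd3 was listed at 0 in every group but wild-type Salmonella. Among those that passed the filter, the myelin gene Mbp rose in wild-type hosts (log2 difference 0.91, SE 0.26, limma, adjusted p = 0.0195), and Gfap, the filament protein of astrocytes and non-myelinating glia, fell by 0.87 on that scale (SE 0.24, adjusted p = 0.0178). Mbp was at 0.905, 1.3 and 0.503 FPKM in the wild-type Salmonella libraries, listed in the order used for Fabp7. The part of glial cells in the Fabp7 level was not tested. In bulk tumour RNA, fewer cells of a type and less RNA per cell cannot be told apart.

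**Figure D1:**
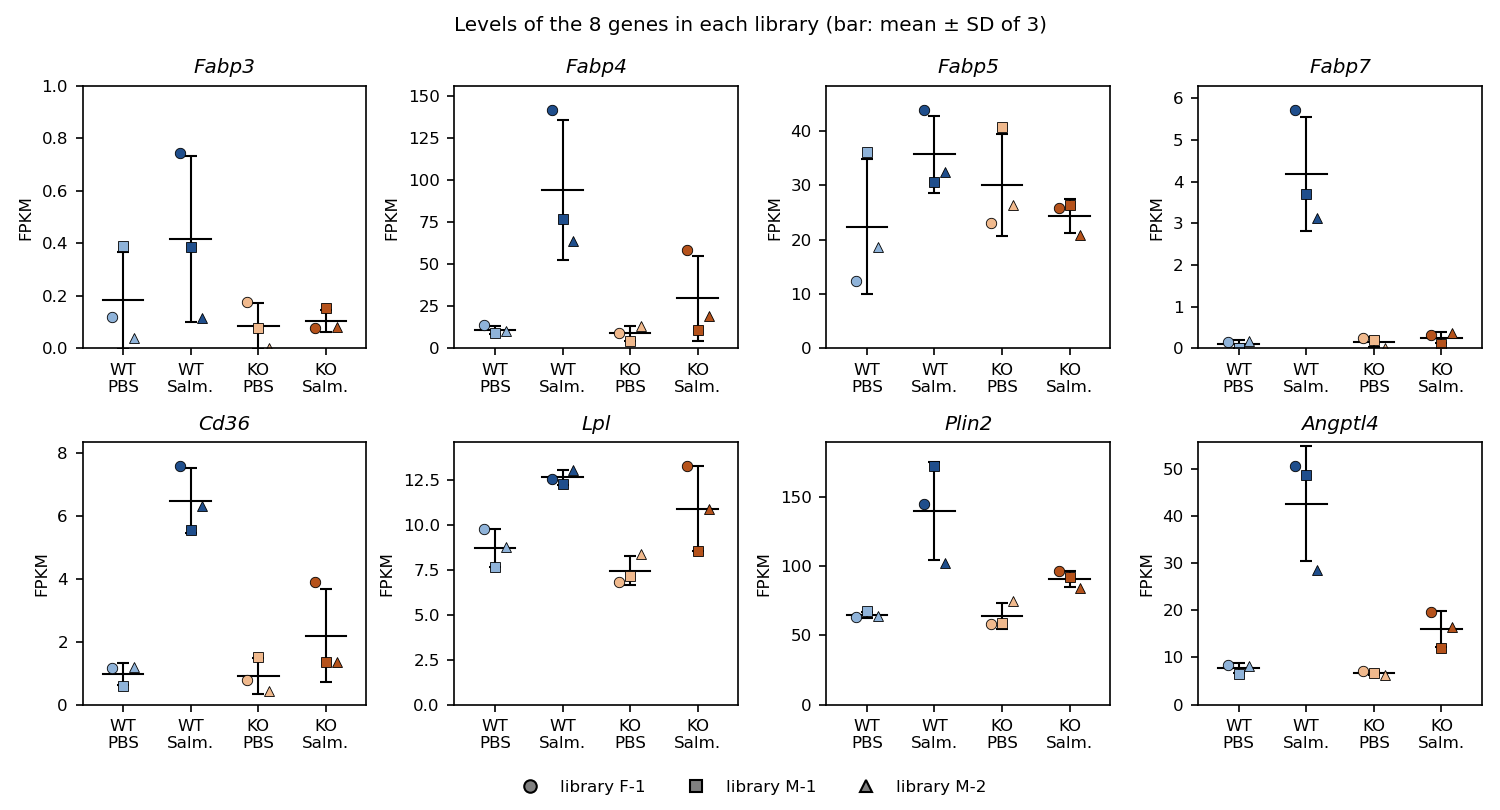
FPKM (vertical axis, own scale per gene) of the 8 genes in each library, by host (WT, wild-type; KO, knockout) and treatment; marker shapes give the title label, and horizontal and vertical lines the mean and SD of 3 libraries, with SD bars stopping at 0. The 3 wild-type Salmonella libraries stand above all others for Fabp4, Fabp7, Cd36, Plin2 and Angptl4, but not for Fabp3, Fabp5 and Lpl. Fabp7 was chosen for its host-dependent response, and the share of all genes with this pattern was not counted.

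Fabp4, Fabp5, Cd36, Lpl, Plin2 and Angptl4 passed the filter and were tested with the other genes, 12164 in all. In wild-type hosts 5 of these 6 rose 1 day after Salmonella and none fell, where 18.6% of all tested genes rose and 17% fell. Their median log2 difference was 1.84, against -0.01 for all tested genes. In knockout hosts none of the 6 passed in limma's test (5 at an unadjusted p under 0.05, and 0 with voom on fragments), where 0.444% of all tested genes rose and 0.329% fell, and their median was 0.72. Under Salmonella 3 of the 6 were lower in knockout than in wild-type hosts, where 5.65% of all tested genes were lower and 3.39% higher. Under PBS none of the 6 differed between hosts in limma's test (0 at an unadjusted p under 0.05, 0 with voom), as was so for 0% of all tested genes, and their log2 differences ran from -0.41 to 0.51. The effects in both hosts were fitted together, but comparisons within wild-type hosts and between hosts share the wild-type Salmonella libraries and are not independent of each other.

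**Figure D2:**
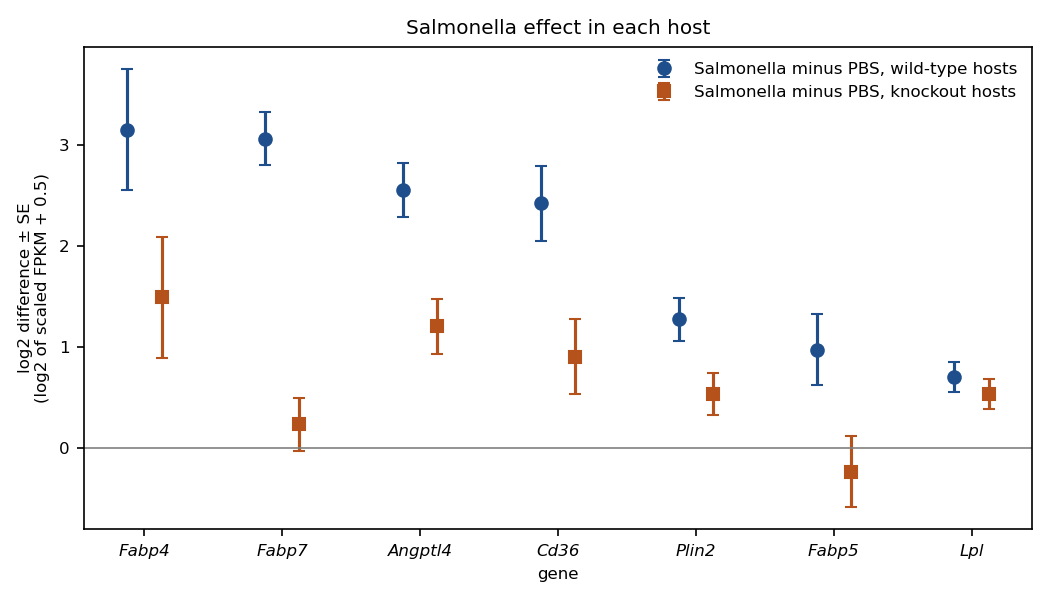
Salmonella minus PBS, as log2 difference of scaled FPKM + 0.5 with its SE (vertical axis), for the 7 genes past the filter, in wild-type (blue circles) and knockout (orange squares) hosts. Each of the 7 has a larger value in wild-type hosts, from 3.15 for Fabp4 down to 0.70 for Lpl; in knockout hosts values run from 1.49 for Fabp4 to -0.24 for Fabp5.

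Among the binding proteins that were tested, Fabp4 showed the larger difference. Its gene lies on chromosome 3 from 10204088 to 10208576, minus strand, in a cluster with Fabp5, Pmp2, Fabp9 and Fabp12. In wild-type hosts it was at 13.9, 9.34 and 10.1 FPKM under PBS (F-1, M-1 and M-2) and at 142, 77.2 and 63.9 under Salmonella. Knockout hosts gave 9.38, 4.25 and 13.1 FPKM under PBS and 58.8, 11 and 19.2 under Salmonella. All Salmonella libraries of wild-type hosts were above all PBS libraries, whereas in knockout hosts F-1 stood far above the PBS libraries, M-2 lay slightly above them and M-1 within them. Fabp4 rose in wild-type hosts from 11.1 ± 2.45 to 94.2 ± 41.5 FPKM (SD, n = 3), a log2 difference of 3.15 (SE 0.60, limma, adjusted p = 0.00467). In knockout hosts the means were 8.91 ± 4.44 and 29.7 ± 25.6 FPKM, with a log2 difference of 1.49 (SE 0.60, 95% interval 0.16 to 2.82, limma, adjusted p = 0.213).

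Under Salmonella Fabp4 was 2.07 lower on the log2 scale in knockout hosts than in wild-type hosts as a point estimate (difference -2.07, SE 0.60, limma, adjusted p = 0.0564), which did not pass. It did pass with the title letter as a term (adjusted p = 0.031), without the knockout Salmonella library F-1 (adjusted p = 0.0255; difference -2.76) and without the wild-type Salmonella library M-2 (adjusted p = 0.0234), in a range over all alternatives of 0.0234 to 0.262. Within the title letters, the Salmonella effect on Fabp4 was 3.58 for F and 2.94 for M in wild-type hosts, and 2.65 for F and 0.91 for M in knockout hosts.

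Some adipocyte markers were high in the same F-1 libraries. The sum of 10 adipocyte markers was 43.4, 17.2 and 7.37 FPKM in wild-type hosts under Salmonella (order as above) and 58.1, 3.3 and 2.95 in the knockout ones, against 3.64 to 11.4 in wild-type PBS and 2.24 to 5.28 in knockout PBS libraries. Adipoq, the adipocyte hormone adiponectin, was at 0.751, 0.665 and 0.172 FPKM in the wild-type Salmonella libraries and at 2.21, 0 and 0.0877 in the knockout ones. Most of the sum was Cfd, the adipocyte protease adipsin, at 28.9 FPKM in F-1 of wild-type hosts under Salmonella and 40.2 in F-1 of knockout hosts. Cidec, Retn, Lep and Car3 were also highest in F-1 within the Salmonella group of each host, whereas Thrsp was so in neither. In wild-type hosts Lipe, the hormone-sensitive lipase, was at 3.26, 2.94 and 2.75 FPKM under PBS and 2.25, 1.56 and 2.69 under Salmonella. Plin1, the droplet coat of adipocytes, was at 0.237, 0.262 and 0.0141 and at 0.14, 0 and 0.0966, so in F-1 both were lower under Salmonella. In knockout hosts under Salmonella both were highest in F-1, Lipe at 3.13, 2.05 and 2.03 FPKM and Plin1 at 0.795, 0 and 0.0423. None of the 4 adipocyte markers that passed the filter was called in either host in limma's test (0 at an unadjusted p under 0.05, 0 with voom). With both Salmonella F-1 libraries left out, an alternative added after the data were seen, Fabp4 rose in wild-type hosts (log2 difference 2.79, limma, adjusted p = 0.0101), and in knockout hosts its difference was 0.81 (adjusted p = 0.441). The part of adipocytes in the Fabp4 level was not tested.

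Endothelial, macrophage and neutrophil markers were read as well. Over all tested genes 18.6% rose and 17% fell in wild-type hosts, and 0.444% rose in knockout hosts. Under Salmonella 5.65% of them were lower in knockout than in wild-type hosts. Of 13 endothelial markers, 12 rose in wild-type hosts and none passed in knockout hosts (5 at an unadjusted p under 0.05 in limma, 0 with voom). Their sum went from 90.6 to 107 FPKM under PBS to 181 to 235 under Salmonella in wild-type hosts, and from 86.3 to 112 to 108 to 154 in knockout hosts. Under Salmonella 9 of the 13 were lower in knockout than in wild-type hosts (8 with voom). Of 11 macrophage markers 1 rose and 2 fell in wild-type hosts, and the sum was 640 to 1125 FPKM under PBS and 371 to 726 under Salmonella. In knockout hosts none of the 11 passed (1 at an unadjusted p under 0.05 in limma, 0 with voom). There the sum was 592 to 1228 FPKM under PBS and 536 to 744 under Salmonella. Between hosts under Salmonella none passed (2 at an unadjusted p under 0.05 in limma, 0 with voom). Neutrophil markers were also higher under Salmonella. All 12 rose in wild-type hosts (11 with voom) and 7 in knockout hosts (1 with voom), and 11 were lower in knockout than in wild-type hosts under Salmonella (7 with voom). Their sum was 17.5 to 29.1 FPKM in wild-type PBS libraries, 3888, 21137 and 3202 in F-1, M-1 and then M-2 of wild-type hosts under Salmonella, 16.1 to 20 in knockout PBS libraries and 580 to 1104 in knockout Salmonella libraries. The part of these cells in the levels of the lipid genes was not tested.

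**Figure D3:**
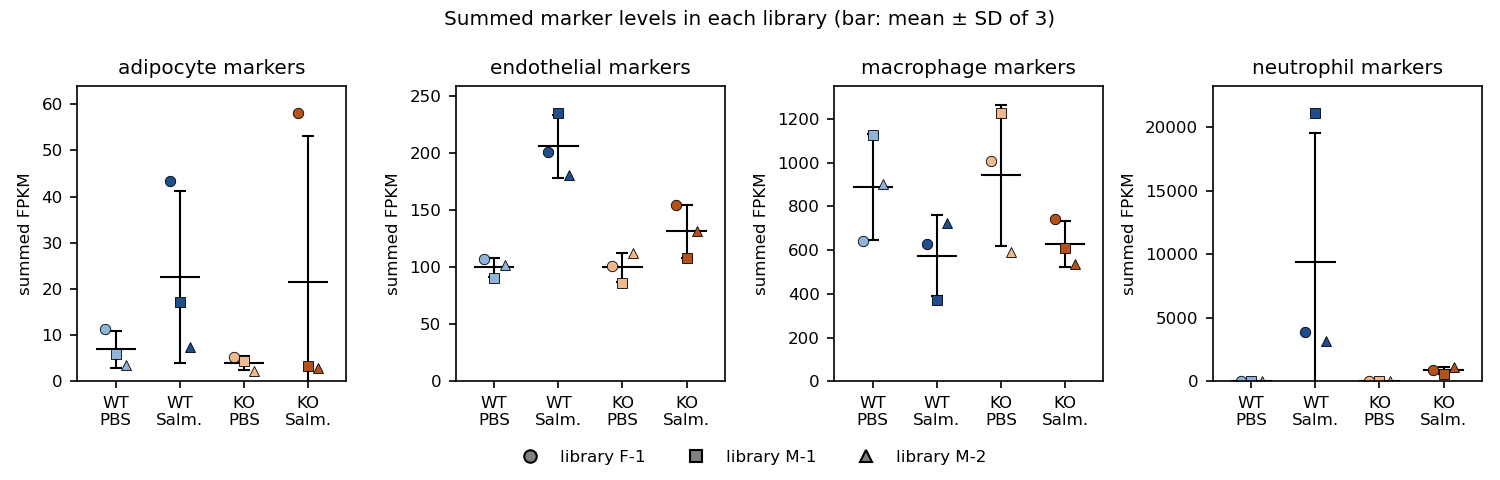
Summed FPKM (vertical axis, own scale per panel) of adipocyte, endothelial, macrophage and neutrophil markers in each library, by host and treatment; lines give the mean and SD of 3 libraries, with SD bars stopping at 0. The adipocyte sum is high in the Salmonella F-1 library of both hosts, 43.4 and 58.1, while the endothelial sum of 181 to 235 in wild-type Salmonella libraries stands above all others.

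Fabp5, on chromosome 3 from 10012548 to 10016607, plus strand, did not pass in any pairwise comparison. Its levels were 12.3, 36.2 and 18.7 FPKM under PBS and 43.9, 30.7 and 32.5 under Salmonella in wild-type hosts, and 23.1, 40.7 and 26.4 under PBS and 25.8, 26.4 and 20.8 under Salmonella in knockout hosts. Treatment groups overlapped in both hosts, with the M-1 library of each PBS group the highest of its group. The log2 difference was 0.97 in wild-type hosts (SE 0.35, 95% interval 0.19 to 1.75, limma, adjusted p = 0.0526) and -0.24 in knockout hosts (SE 0.35, 95% interval -1.01 to 0.54, adjusted p = 0.745). Neither passed. The wild-type difference passed when the PBS library M-1 of wild-type hosts was left out (1.38, adjusted p = 0.0134), and likewise their Salmonella library M-2 (adjusted p = 0.0451) or the knockout PBS library M-1 (adjusted p = 0.0489), and over all alternatives its adjusted p ran from 0.0134 to 0.435.

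Fabp3, on chromosome 4 from 130308595 to 130315463, plus strand, did not pass the filter, with 0 to 17 fragments per library. It was at 0.118, 0.389 and 0.0396 FPKM under PBS and 0.746, 0.386 and 0.117 under Salmonella in wild-type hosts, and between 0 and 0.178 FPKM in the knockout libraries. The groups overlapped in both hosts. The depth-adjusted ratio of fragments was 2.21 in wild-type hosts (14 against 28 fragments, 95% exact interval 1.12 to 4.54) and 1.27 in knockout hosts (6 against 8, interval 0.387 to 4.45), for counting error only. Its gene overlaps Zcchc17 and Gm10570 on the other strand, so without a stated strand setting its few fragments cannot be told apart from theirs. Of 10 tested markers of skeletal muscle, which share its tissue, 7 rose in wild-type hosts (4 with voom), beside 18.6% of all tested genes. The skeletal muscle markers summed to 47.7 to 106 FPKM in wild-type Salmonella libraries against 3.3 to 7.61 under PBS. In knockout hosts that sum was 3.23 to 13.5 FPKM under PBS and 4.29 to 129 under Salmonella, highest in F-1, where Fabp3 was at 0.0786 FPKM. The part of muscle in the Fabp3 level was not tested.

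At the membrane, Cd36, on chromosome 5 from 17781690 to 17888801, minus strand, rose in wild-type hosts. It was at 1.16, 0.579 and 1.2 FPKM under PBS and 7.57, 5.54 and 6.31 under Salmonella. Knockout hosts gave 0.778, 1.52 and 0.414 FPKM under PBS and 3.88, 1.34 and 1.35 under Salmonella. The wild-type groups did not overlap, whereas in knockout hosts F-1 was the only Salmonella library above every PBS library. The log2 difference was 2.42 in wild-type hosts (SE 0.37, limma, adjusted p = 0.00177) and 0.90 in knockout hosts (SE 0.37, 95% interval 0.08 to 1.72, adjusted p = 0.218). Under Salmonella Cd36 was lower in knockout hosts by 1.64 on that scale (difference -1.64, SE 0.37, limma, adjusted p = 0.0285).

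Lpl, the lipase, is on chromosome 8 from 68880491 to 68907448, plus strand, and had the smallest difference that passed. It was at 9.79, 7.65 and 8.8 FPKM under PBS and 12.6, 12.3 and 13.1 under Salmonella in wild-type hosts, and at 6.84, 7.15 and 8.37 under PBS and 13.3, 8.56 and 10.9 under Salmonella in knockout hosts. Salmonella libraries lay above PBS libraries in both hosts, and the Salmonella groups of the 2 hosts overlapped. Lpl rose in wild-type hosts (log2 difference 0.70, SE 0.15, limma, adjusted p = 0.00628). The difference in knockout hosts was 0.53 (SE 0.15, 95% interval 0.20 to 0.86, adjusted p = 0.108), and the response in knockout hosts minus that in wild-type hosts was -0.17 (SE 0.22), the smallest such value of the 7 genes.

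Angptl4, the inhibitor of that lipase, on chromosome 17 from 33773750 to 33781830, minus strand, had a larger log2 difference than the enzyme. Wild-type hosts had 8.47, 6.56 and 8.2 FPKM under PBS and 50.7, 48.8 and 28.7 under Salmonella. Knockout hosts had 7.09, 6.6 and 6.36 FPKM under PBS and 19.6, 12 and 16.5 under Salmonella. Every Salmonella library was above every PBS library in both hosts, and every wild-type Salmonella library was above every knockout one. In wild-type hosts Angptl4 rose from 7.74 ± 1.03 to 42.7 ± 12.2 FPKM (SD, n = 3), a log2 difference of 2.55 (SE 0.27, limma, adjusted p = 0.000426). In knockout hosts the means were 6.69 ± 0.374 and 16 ± 3.77 FPKM, and the difference of 1.20 (SE 0.27, 95% interval 0.61 to 1.79, limma, adjusted p = 0.0717) did not pass. It did pass with FPKM as deposited (adjusted p = 0.0372), with only both knockout groups in the fit (adjusted p = 0.0183), with the title letter as a term (adjusted p = 0.0467) and without M-2 of wild-type Salmonella (adjusted p = 0.00459), in a range of 0.00459 to 0.575. Under Salmonella it was lower in knockout hosts (difference -1.53, SE 0.27, limma, adjusted p = 0.0156).

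Plin2, the droplet coat protein, on chromosome 4 from 86648386 to 86670060, minus strand, was the most abundant of the 8 per kilobase. It was at 62.9, 67.2 and 64.2 FPKM under PBS and 145, 172 and 102 under Salmonella in wild-type hosts, and at 58.2, 59 and 74.9 under PBS and 96.1, 91.7 and 84.4 under Salmonella in knockout hosts. Salmonella libraries were above PBS libraries in both hosts, and the wild-type Salmonella libraries were above the knockout ones, M-2 by the smallest margin. Plin2 rose in wild-type hosts (log2 difference 1.27, SE 0.21, limma, adjusted p = 0.00237). In knockout hosts the difference was 0.53 (SE 0.21, 95% interval 0.07 to 1.00, adjusted p = 0.204), which passed without M-2 of wild-type Salmonella (adjusted p = 0.0249). Under Salmonella it was lower in knockout hosts (difference -0.75, SE 0.21, limma, adjusted p = 0.0474), a call lost with voom (0.0515), with no filter (0.0758), with the title letter as a term (0.0613) and with only both Salmonella groups in the fit (0.16).

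The 3 calls between hosts under Salmonella rested on few libraries. Neither Angptl4 (adjusted p = 0.104) nor Cd36 (adjusted p = 0.1) passed with only both Salmonella groups in the fit. Angptl4 did not pass without wild-type Salmonella F-1 (adjusted p = 0.0751), wild-type Salmonella M-1 (0.0692), knockout Salmonella M-1 (0.0656) or knockout Salmonella M-2 (0.0548). Cd36 did not pass without the same 4 libraries, in the same order at adjusted p = 0.128, 0.0983, 0.109 and 0.0933. Plin2 kept its call in 2 of the 12 fits that leave out a library, those without wild-type Salmonella M-2 or knockout PBS M-2. No gene of the 6 passed this comparison with both Salmonella F-1 libraries left out. The rises in wild-type hosts held for all 5 genes in each of the 12 fits that leave out a single library and with both Salmonella F-1 libraries left out. In the 8 libraries titled M alone, an alternative added after the data were seen, Cd36 (log2 difference 2.38, adjusted p = 0.0358) and Angptl4 (2.44, adjusted p = 0.0332) passed, while Fabp4 (2.95, adjusted p = 0.0515), Lpl (0.76, adjusted p = 0.0528) and Plin2 (1.17, adjusted p = 0.0854) did not.

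The response in knockout hosts minus that in wild-type hosts was -2.82 (SE 0.37) for Fabp7, -1.67 (SE 0.85) for Fabp4, -1.52 (SE 0.52) for Cd36, -1.34 (SE 0.38) for Angptl4, -1.21 (SE 0.50) for Fabp5, -0.73 (SE 0.30) for Plin2 and -0.17 (SE 0.22) for Lpl. All 7 values are negative, as were those of 5952 of the 12164 tested genes. In this interaction term 0.0247% of all tested genes were called. The 7 values are given without a test, since the set was chosen for such a response.

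Other genes of fatty acid handling were read from 6 lists, 114 genes of which 83 passed the filter. In wild-type hosts 22 of the 83 rose and 13 fell, beside 18.6% and 17% of all tested genes. The median log2 difference of the 83 was -0.01, equal to that of all tested genes. In knockout hosts 1 of the 83 was called, Acadvl, the first dehydrogenase of very long chains in mitochondria, which fell by 0.38 (SE 0.08, limma, adjusted p = 0.0486); none was called with voom. Under Salmonella 9 of the 83 were lower in knockout hosts and none higher, beside 5.65% and 3.39% of all tested genes, and 4 of the 83 were called with voom. None of the 83 passed for the interaction in limma's test (16 at an unadjusted p under 0.05, 0 with voom), and none differed between hosts under PBS (1 at an unadjusted p under 0.05, 0 with voom).

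Of 15 tested genes of lipid droplets and lipolysis, 7 rose in wild-type hosts, none fell and the other 8 did not pass, beside 18.6% and 17% of all tested genes. The list's median was 0.27, with 5 of the 15 differences negative. G0s2, which inhibits the first lipase of droplet breakdown, was at 2.85, 3.39 and 3.74 FPKM under PBS and 83, 218 and 28.9 under Salmonella in wild-type hosts (log2 difference 4.60, SE 0.60, limma, adjusted p = 0.00113), and at 3.14 ± 0.959 and 20.5 ± 4.53 FPKM in knockout hosts (2.56, SE 0.60, adjusted p = 0.0894). The knockout difference passed with only both knockout groups in the fit (adjusted p = 0.00403), without wild-type Salmonella M-1 (0.0258) and without M-2 of that group (0.00931). G0s2 was highest in the library with the highest neutrophil sum, M-1 of wild-type hosts under Salmonella. The part of neutrophils in the G0s2 level was not tested. Dgat2, which makes triglyceride, rose from 3.11 ± 0.206 to 16.1 ± 7.99 FPKM (2.26, SE 0.38, adjusted p = 0.00308). Mgll, which splits monoglyceride, rose from 0.778 ± 0.222 to 1.82 ± 0.0761 FPKM (1.02, SE 0.21, adjusted p = 0.00529). A maker of triglyceride and an enzyme that splits monoglyceride were thus both among the genes that rose.

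Of 11 other genes of the binding protein family, 4 passed the filter. Of these 4, 2 rose in wild-type hosts and none fell, beside 18.6% and 17% of all tested genes. The most abundant was Crabp2, named after its value was seen, which in wild-type hosts was at 94.8 ± 8.41 FPKM with PBS and 79.2 ± 30 FPKM with Salmonella (log2 difference -0.13, SE 0.16, limma, adjusted p = 0.547). Crabp1, which binds retinoic acid, rose in wild-type hosts from 0.201 ± 0.187 to 3.98 ± 3.67 FPKM (log2 difference 2.54, SE 0.82, limma, adjusted p = 0.0362), a call that was lost with voom (adjusted p = 0.0896) and without any one of the wild-type PBS libraries or of the Salmonella libraries F-1 and M-1 of those hosts (adjusted p = 0.072 to 0.125). Rbp2 did not pass (0.45, SE 0.25, adjusted p = 0.178). Fabp12, a neighbour of Fabp4, was listed at 0 in every library.

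Of 14 genes of transport and activation, 3 rose and 3 fell in wild-type hosts, near the shares over all tested genes. Msr1, a scavenger receptor of macrophages, rose from 4.14 ± 0.155 to 11.4 ± 1.58 FPKM (log2 difference 1.53, SE 0.23, limma, adjusted p = 0.00154) and was lower in knockout than in wild-type hosts under Salmonella (-1.15, SE 0.23, adjusted p = 0.0199). The call of Msr1 between hosts was lost without any one of the 4 libraries that decide those of Angptl4 and Cd36, at adjusted p = 0.0622 to 0.0979. Acsl3, which activates fatty acids with coenzyme A, fell from 20.8 ± 1.4 to 12 ± 3.86 FPKM, and Cav1, the coat protein of caveolae, from 206 ± 34.9 to 117 ± 40.3 FPKM (adjusted p = 0.0104 and 0.0127). Without wild-type Salmonella F-1 neither fall passed (adjusted p = 0.0511 and 0.0591), and that of Cav1 did not pass without wild-type PBS M-1 (0.0516) or wild-type Salmonella M-1 (0.0516) either.

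Among the partners of the lipase and the lipoprotein receptors, 3 of 14 rose and 5 fell in wild-type hosts, beside 18.6% and 17% of all tested genes. Vldlr, a receptor for triglyceride-rich particles, fell from 8.11 ± 1.07 to 4.54 ± 0.789 FPKM (log2 difference -0.60, SE 0.15, limma, adjusted p = 0.0115), a call lost without wild-type PBS M-2 (0.0513) or wild-type Salmonella F-1 (0.0534). Lipa, the lysosomal lipase, fell from 28.3 ± 2.1 to 18.1 ± 4.56 FPKM (-0.46, SE 0.11, adjusted p = 0.01), a call lost without both Salmonella F-1 libraries (-0.32, adjusted p = 0.059). Gpihbp1, which anchors Lpl on capillaries and is also one of the endothelial markers, rose (0.99, SE 0.28, adjusted p = 0.0197). It was named after its value was seen.

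Of the PPAR receptors and their partners, 2 of 14 rose and 4 fell in wild-type hosts, beside the same 18.6% and 17% of all tested genes. Cebpd and Cebpb, transcription factors of adipocyte differentiation and of inflammation, rose (Cebpd log2 difference 2.40, SE 0.30, limma, adjusted p = 0.00091; Cebpb 1.29, SE 0.23, adjusted p = 0.00319). The receptors themselves were named after their values were seen: Ppard was lower by 0.28 (difference -0.28, SE 0.08, adjusted p = 0.0236), Pparg was at 0.837 ± 0.141 and 0.511 ± 0.291 FPKM (adjusted p = 0.256), and Ppara did not pass the filter. In fatty acid oxidation 5 of 22 rose and 1 fell in wild-type hosts, beside those shares, with a median of 0.07. Slc25a20, the carnitine carrier of mitochondria, rose by 0.63 (SE 0.12, adjusted p = 0.00424), and Cpt1a, which admits fatty acids to oxidation, by 0.46 (SE 0.10, adjusted p = 0.00652), a call lost with FPKM as deposited (0.28, adjusted p = 0.0972). Pdk4, which restrains glucose oxidation, rose from 0.0258 ± 0.0195 to 1.54 ± 0.95 FPKM (1.96, SE 0.43, adjusted p = 0.00716).

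In the M libraries alone, the differences of G0s2, Dgat2, Mgll, Crabp1, Msr1, Acsl3, Cav1, Vldlr, Lipa, Cebpb and Slc25a20 in wild-type hosts kept their sign and did not pass, with adjusted p from 0.0607 for Mgll to 0.203 for Crabp1.

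**Figure D4:**
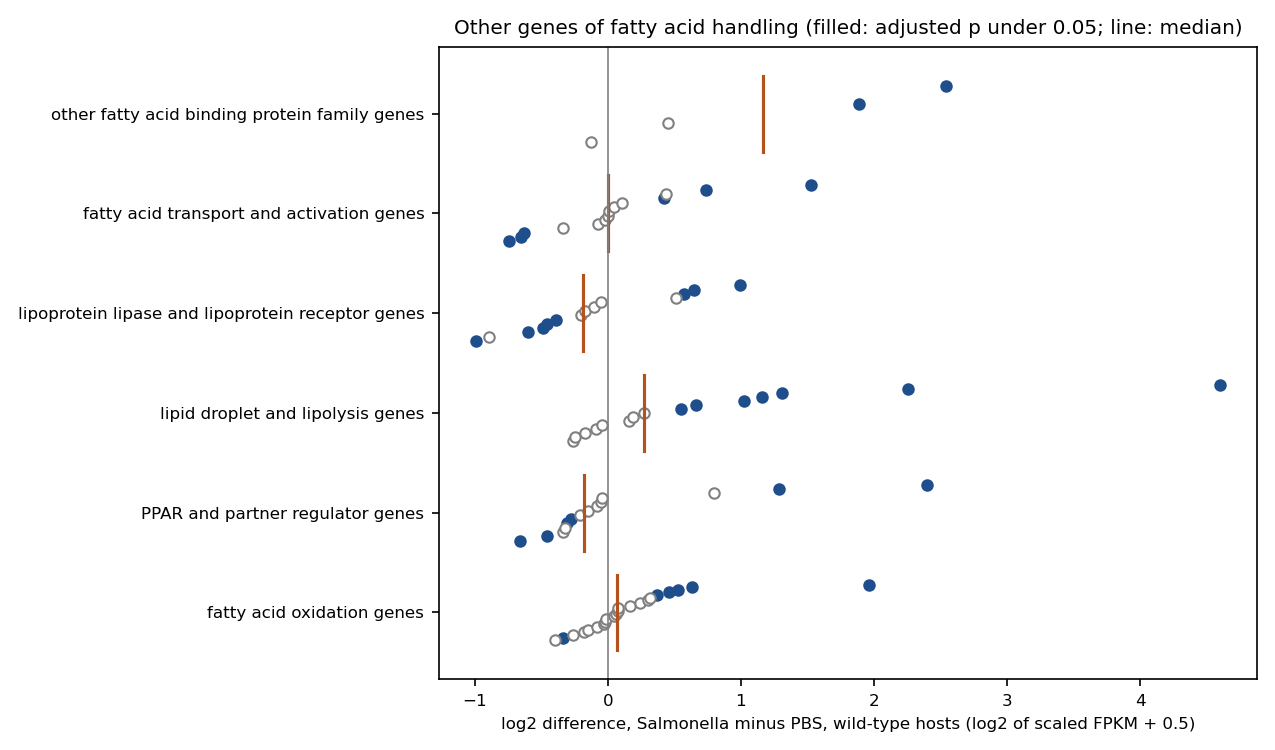
Log2 difference, Salmonella minus PBS in wild-type hosts (horizontal axis, log2 of scaled FPKM + 0.5), for the 83 tested genes of 6 lists (vertical axis), filled where the adjusted p is under 0.05; orange lines are list medians. Lipid droplet genes have 7 filled points, all to the right of 0, and the other lists apart from the binding protein family have filled points on both sides.

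For each of the 7 genes past the filter, the genes with the most similar pattern were found by Pearson's r over the 12 libraries on the log2 scale, which is a description of points that share the 4 groups. Fabp7 was most like Serpina3i (0.989), Ctla2b (0.978) and Smpx (0.975). Ctla2b was at 6.87 ± 1.81 and 74 ± 21.6 FPKM in wild-type hosts and at 7.13 ± 2.41 and 8.36 ± 2.03 in knockout hosts, a pattern like that of Fabp7 at a higher level. Fabp4 was most like Ndrg2 (0.985), Tmem252 (0.974) and Epas1 (0.970), and Cd36 most like Lgi2 (0.977), Gda (0.974) and Rnase4 (0.973). Angptl4 was most like Zc3h12a (0.991), Sod3 (0.989) and Hmox1 (0.989), and Plin2 most like Mrpl33 (0.989), Saa2 (0.988) and Rpl29 (0.985). Lpl was most like Aoc3 (0.969), Rasip1 (0.968) and Cox11 (0.961). Fabp5, whose groups overlapped, had the least similar companions, Sh3bgrl3 (0.881), Mfng (0.853) and Mob2 (0.843).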

How the data were processed

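The authors deposited 1 table of FPKM per library. The unit was inferred from the values, since each of 18222 genes above 0 gave whole fragments, within 0.01, at 1 gene length. The submitters' processing notes name fastp, HISAT2 and HTSeq with no version or role. TRIzol was used for extraction, per the labels' protocols. Strand setting, genome build and annotation: not given in the sources used here. From those deposited FPKM, limma 3.58.1 (R 4.3.3) was fitted to log2(FPKM / scaling factor + 0.5), with trend and robust moderation, a mean for each group and 8 degrees of freedom left. Scaling factors, from a trimmed mean of log ratios (30% and 5% trimmed by ratio and level), lay between 0.851 and 1.048, lowest in F-1 and M-1 of wild-type hosts under Salmonella. Levels in the text are unscaled. A gene needed 0.5 FPKM in at least 3 libraries to be tested. P-values are two-sided, with Benjamini-Hochberg adjustment across the 12164 tested genes and a threshold of 0.05. The fit was tested on simulated data. No libraries of a group held identical values (chi-square per gene 16.8 to 166).

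The members and gene lists were chosen with earlier results of these data known. Named were the 8 members, from each list the 3 genes of lowest p for Salmonella in wild-type hosts, and the 3 genes most correlated with each member, leaving out predicted and RIKEN symbols. Some genes that this rule names are left out of the text. Of 12 neutrophil, 3 platelet, 3 keratinocyte and 10 fibroblast markers tested, 12, 2, 0 and 6 rose in wild-type hosts. Of all tested genes 18.6% did. Alternatives were median-of-ratios or no scaling, pseudocounts of 0.1 and 1, no filter, 2 groups alone, title label or letter as a term, voom on recovered fragments and each library left out. Added after the data were seen were fits that used the M libraries only or left out both Salmonella F-1 libraries.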

Additional observations from a re-analysis of the deposited data

How the results depend on the processing

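Members called in wild-type hosts numbered 5 in each alternative fixed with the design that leaves out no library, except the replicate block, where Fabp5 passed too (adjusted p = 0.0445), and 5 to 6 with a library left out. They numbered 2 in the 8 libraries titled M. In knockout hosts 1 member (Angptl4) was called with FPKM as deposited, with only the 2 groups compared and with the title letter as a term, and 0 to 2 with a library left out. Between hosts under Salmonella 0 were called with only the 2 groups compared, in the M libraries and without both Salmonella F-1 libraries, and 0 to 4 with a library left out. Under PBS none was called in any setting.

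Calls among all genes in wild-type hosts were 4330, and 2458 with only the 2 groups compared, 231 in the M libraries, 1933 without both Salmonella F-1 libraries and 2049 (without wild-type Salmonella F-1) to 6220 (without wild-type Salmonella M-2) with a library left out. In knockout hosts 94 became 37 with no filter, 206 with only the 2 groups, 45 with the replicate block, 23 with voom, 0 in the M libraries, 1 without both Salmonella F-1 libraries and 4 to 754 with a library left out. Between hosts under Salmonella 1099 became 12 with only the 2 groups, 575 with voom, 2 in the M libraries, 13 without both Salmonella F-1 libraries and 10 to 4595 with a library left out. Under PBS 1 gene was called with no filter. For the interaction 3 became 6 with FPKM as deposited, 0 with voom, 1 in both added alternatives and 2 to 2237 with a library left out. Unscaled FPKM moved the median of all genes by -0.186 in wild-type hosts. Fits that drop libraries also hold fewer samples. The highest counts with a library left out, 6220, 754, 4595 and 2237, all came without wild-type Salmonella M-2. Within that group, chi-square per gene was 138 and 166 for the pairs with M-2 and 54 for F-1 with M-1. The cause of these changes was not tested.

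Title labels do not pair the libraries (same-label correlations, given for F-1 first and M-2 last, of 0.0358, 0.00278 and -0.0296 in wild-type hosts, 0.123, -0.125 and -0.19 in knockout hosts, 0.336, -0.332 and 0.00914 between hosts under Salmonella and 0.0638, 0.396 and -0.033 under PBS). With the replicate block Plin2 was lost between hosts under Salmonella (adjusted p = 0.0604) and Fabp4 gained (0.0324).

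Small differences changed sign when a library was left out: between hosts under PBS, Fabp4 (-0.74 to 0.03), Cd36 (-0.41 to 0.14) and Plin2 (-0.15 to 0.04), and in knockout hosts Rbp2 (-0.13 to 0.24) and Vldlr (-0.22 to 0.05). In the M libraries Cd36 (0.01) and Plin2 (0.02) under PBS and Vldlr (-0.01) between hosts under Salmonella did so, the last also without both Salmonella F-1 libraries (-0.01). Fabp7 had no value in fits without a wild-type Salmonella library. At this depth 3 fragments in a gene of 1 kb, the limit that a count of 0 allows, equal 0.07738 to 0.09832 FPKM, for counting error only.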
